A study of Mus musculus with 32 samples.

Results

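Transcript levels were compared between mouse embryonic stem cells in which CTCF had been degraded for 24 h and the same cell line at 0 h. The cells were E14, an established line, with the genotype CTCF AID, in which CTCF carries an auxin-inducible degron (AID) that directs the tagged protein to destruction once an auxin is added. The 0 h group received no indole-3-acetic acid (IAA), the auxin used, and the 12 h and 24 h groups received 500 µM IAA for those times, with 2 libraries in each group. These 6 libraries share a single table, and they are 6 of the 32 libraries of the series. All genes with a mean value of at least 10 over the 6 libraries were compared, 13699 of the 14267 complete lines of the table, and most weight is given to genes whose 24 h level lay beyond the 12 h level. At this limit, Map3k21 (mean 10.01) and Ccdc151 (10.01) lay just inside, and Adgrf5 (9.999) and Gm5540 (9.99) just outside.

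All groups were grown, per the labels' protocols, without serum on gelatin in N2 and B27 medium with leukemia inhibitory factor, the MEK inhibitor PD0325901 and CHIR99021, an inhibitor of the kinase GSK3 that keeps Wnt signalling active. The 6 libraries hold no cells given IAA without the degron and no degron cells depleted by other means, so effects of IAA and of CTCF loss cannot be told apart. The labels do not say whether the line is 1 clone or whether the libraries of a group came from separate cultures. The p-values therefore measure only the spread between these libraries, which may be technical.

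CTCF is a zinc finger protein that binds a long, directional DNA motif and stops the cohesin complex as it extrudes loops of chromatin, so that CTCF sites mark many loop anchors and the borders of topologically associating domains. Some CTCF sites lie at promoters, where the protein can bring distal enhancers close, and others insulate promoters from enhancers that belong to neighbouring genes. Degron studies are used to separate early effects on transcription from the later ones that follow through other regulators, and in embryonic stem cells the clustered protocadherins, the Hox clusters and the imprinted Igf2-H19 region are classic CTCF-dependent loci.

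Values throughout are normalised counts as the authors deposited them. They summed to between 15513445 and 16039750 a library, with Pearson correlations between replicates of 0.983 to 0.987 across genes on the log2 scale, a description only. All 10 embryonic stem cell markers examined were present, with summed values of 84721 and 84160 at 0 h and 73749 and 74809 at 24 h. Of 10 feeder fibroblast markers 3 were tested, with sums of 241 and 253 at 0 h and 94.1 and 103 at 24 h, and one of these, Pdgfrb, was called lower (-1.76 ± 0.19 SE). The part of other cells in the differences below was not tested, and in bulk RNA fewer cells of a type and less RNA per cell cannot be told apart. Ctcf itself (ENSMUSG00000005698.15, chromosome 8, 105636568 to 105682922, plus strand, with gene positions throughout on GRCm38) was 3300.4 and 3253 at 0 h, 4148 and 3881 at 12 h and 3478 and 3607 at 24 h. The degron acts on protein and not on RNA, and the log2 difference of 0.11 between 24 h and 0 h was not called (limma adjusted p 0.146), so the transcript does not check the degradation.

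After 24 h of IAA, 3079 of 13699 genes (22.5%) differed from 0 h at a Benjamini-Hochberg adjusted p under 0.05 in limma, the rule for every gene said here to be called, to rise or to fall. Of these, 1596 genes (11.7%) were higher and 1483 (10.8%) lower. The libraries of both groups did not overlap for any of the 3079. With 2 libraries a group a low p largely requires this, so it adds no support to the calls. The share without overlap among all genes is not given here. Differences are given on the log2(value + 1) scale, on which 1 is close to 2-fold and which understates the change of genes with low values. Large changes were more often falls: 532 called genes were at least 2-fold lower and 288 at least 2-fold higher, and at 4-fold the counts were 160 and 81. The median over all genes tested was 0.00. The number of calls rested on both 0 h libraries: it was 1565 without replicate 1 and 1499 without replicate 2 of that group.

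**Figure D1:**
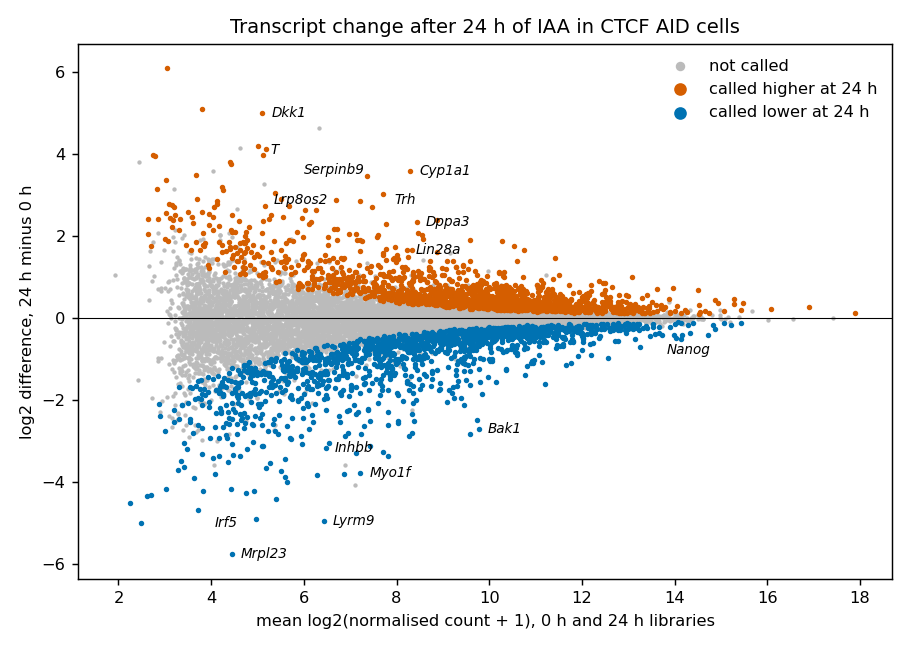
Each point is 1 of 13699 genes, with the mean log2(normalised count + 1) of the 0 h and 24 h libraries on the horizontal axis and the log2 difference, 24 h minus 0 h, on the vertical axis. The 1596 genes called higher are orange and the 1483 called lower are blue, and more points lie far below than far above the zero line.

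Among genes whose higher group averaged 100 or more, the 10 largest rises were those of Dkk1, Glod5, Gnat1, T, Cyp1a1, Serpinb9, Syt11, Trh, Slc25a45 and Lrp8os2, with log2 differences of 2.88 to 5.00. Dkk1 (ENSMUSG00000024868.8, chromosome 19, 30545863 to 30549665, minus strand), a secreted inhibitor of Wnt receptors that is itself a Wnt target, was 4.18 and 6.14 at 0 h, 77.5 and 101 at 12 h and 203 and 185 at 24 h. Its log2 difference of 5.00 (SE 0.28, adjusted p 8.48e-05) was the largest rise, and every 24 h value lay above every 12 h value. The 24 h minus 12 h difference of Dkk1, 1.12, was not called (limma adjusted p 0.163). The T gene (ENSMUSG00000062327.10, chromosome 17, 8434423 to 8442496, plus strand), which encodes the mesodermal transcription factor brachyury, was 8.93 and 6.80 at 0 h, 54.04 and 82.7 at 12 h and 130.2 and 146 at 24 h, a difference of 3.98 (SE 0.30, adjusted p 0.000258) with the same order of times. The 24 h minus 12 h difference of T, 1.03, was not called either (limma adjusted p 0.212). Cyp1a1 (ENSMUSG00000032315.6, chromosome 9, 57687928 to 57703824, plus strand), a cytochrome P450 and the best known target of the aryl hydrocarbon receptor, was 101 and 78.1 at 0 h, 981 and 1049.8 at 12 h and 1066 and 1118 at 24 h, a difference of 3.60 (SE 0.13, adjusted p 3.90e-05). Most of that rise was in place at 12 h. Serpinb9, an intracellular inhibitor of granzyme B, went from 55.5 and 42.2 at 0 h to 557 and 537 at 24 h (3.47 ± 0.16 SE). Trh, the precursor of thyrotropin-releasing hormone, went from 81.4 and 64.5 to 608 and 591 (3.03 ± 0.14 SE).

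The other rises in this group of 10, like those of Dkk1 and T, started from low values. Gnat1, the transducin subunit of rod photoreceptors, was 5.92 and 10.02 at 0 h, 148 and 138 at 12 h and 155 and 147 at 24 h, and Glod5 was 8.28 and 5.09 at 0 h, 92.6 and 87.9 at 12 h and 141 and 133 at 24 h. Gnat1 was near its 24 h level at 12 h (24 h minus 12 h 0.08), and Glod5 less so (0.60). Slc25a45, of the mitochondrial carrier family, was 11.6 and 20.9 at 0 h and 141 and 107 at 24 h. Lrp8os2 (ENSMUSG00000073779.7, chromosome 4, 107806033 to 107823022, minus strand), a noncoding antisense RNA of the Lrp8 locus, differed from these in time: it was 33.5 and 41.1 at 0 h, 40.3 and 38.1 at 12 h and 355 and 219 at 24 h. Only its 24 h libraries were high, and its 24 h minus 0 h difference was 2.88 (SE 0.27, adjusted p 0.000625). Syt11, a synaptotagmin of membrane traffic, was 12.1 and 14.7 at 0 h, 68.99 and 11.7 at 12 h and 146 and 95.3 at 24 h, with 12 h libraries that disagreed. Its rise of 3.05 ± 0.72 (SE) lost its call without any of the 4 libraries at 0 h and 24 h, where it was 2.92, 3.18, 2.74 and 3.36 (limma adjusted p 0.0572 to 0.109).

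The 10 largest falls were also taken among genes whose higher group averaged 100 or more, a rule that bounds their 0 h levels from below. Mrpl23 (ENSMUSG00000037772.13, chromosome 7, 142532686 to 142540747, plus strand), which encodes a protein of the mitochondrial ribosome and lies beside the H19 gene, was 159 and 159 at 0 h, 9.84 and 34.8 at 12 h and 0 and 7.67 at 24 h. This was the largest fall, -5.76 (SE 1.00, adjusted p 0.00750), but its size rested on the 24 h libraries: it was -4.20 without the one listed at 0 and -7.32 without the other. Lyrm9 (ENSMUSG00000072640.11, chromosome 11, 78826584 to 78846870, plus strand), of the LYR motif family of mitochondrial proteins, was 507 and 447 at 0 h, 15.9 and 16.6 at 12 h and 15.9 and 13.3 at 24 h. It fell by 4.94 (SE 0.24, adjusted p 5.61e-05), and its 12 h and 24 h values overlapped. Irf5 (ENSMUSG00000029771.12, chromosome 6, 29526625 to 29541871, plus strand), a transcription factor of the interferon pathway, was 102 and 279.8 at 0 h, 9.06 and 7.90 at 12 h and 5.98 and 3.73 at 24 h, a difference of -4.89 (SE 0.52, adjusted p 0.00104). The 0 h libraries of Irf5 were far apart, and the difference was -5.61 without replicate 1 and -4.17 without replicate 2 of that group. Tnpo3 overlaps Irf5 on the opposite strand, and strand use in counting is not given in the sources used here, so the reads of that pair may be mixed.

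The remaining large falls followed the same course. Dennd6b (ENSMUSG00000015377.10, chromosome 15, 89182213 to 89196496, minus strand), a DENN domain regulator of Rab GTPases, was 196 and 189 at 0 h, 10.1 and 19.6 at 12 h and 12.6 and 5.10 at 24 h (-4.41 ± 0.47 SE). Myo1f, a class I myosin, was 595 and 501 at 0 h, 58.1 and 74.4 at 12 h and 41.7 and 36.8 at 24 h (-3.77 ± 0.20 SE), and R3hcc1 was 425 and 449 at 0 h, 39.01 and 49.6 at 12 h and 35.5 and 26.2 at 24 h (-3.80 ± 0.23 SE). In both, every 24 h value lay below every 12 h value, but neither gene was called between 24 h and 12 h. Cc2d2a, a protein of the transition zone of cilia, was 199 and 196 at 0 h and 15.2 and 8.64 at 24 h, and Dph7, an enzyme of the diphthamide modification of translation elongation factor eEF2, was 317 and 271 at 0 h, 63.7 and 41.1 at 12 h and 16.97 and 22.96 at 24 h. Fhad1 was 121 and 114 at 0 h and 9.28 and 2.72 at 24 h and Ankrd44, an ankyrin repeat protein, was 169 and 199 at 0 h and 6.78 and 19.8 at 24 h. The log2 differences of Cc2d2a, Dph7, Fhad1 and Ankrd44 were -3.99, -3.83, -4.26 and -3.86. Without 24 h replicate 1 the difference was -4.99 in Fhad1 and -3.15 in Ankrd44, and without replicate 2 of that group it was -3.53 and -4.57. Fhad1 and Ankrd44 are each overlapped by a noncoding gene on the opposite strand.

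**Figure D2:**
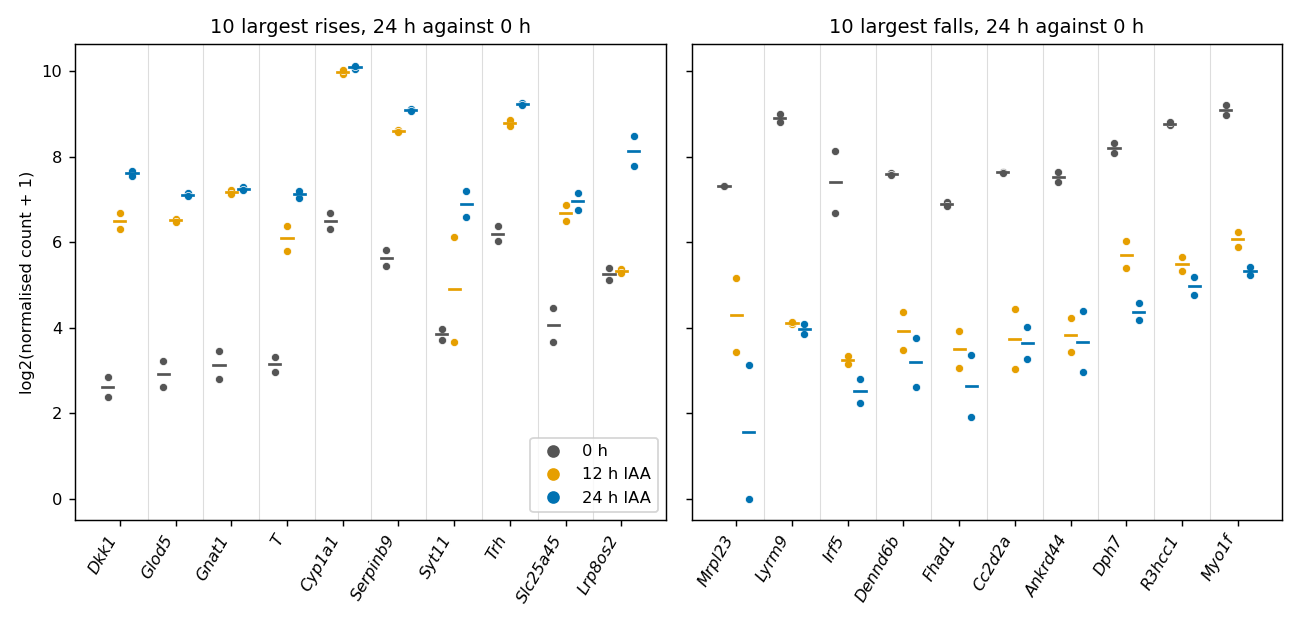
The values of the 10 largest rises (left) and 10 largest falls (right) are given as log2(normalised count + 1), with 1 point per library, a short line at the mean of the 2 libraries of a group, and colours for 0 h, 12 h and 24 h of IAA. The 0 h and 24 h points are apart in all 20 genes, as the rule for choosing them required. For most genes the 12 h points lie near the 24 h points, while those of Lrp8os2 stay at the 0 h level.

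Genes called lower more often had a CTCF core motif at the promoter. RefSeq promoters (GRCm38.p6, from 250 bases before to 50 after a start) were searched on both strands for the 12-base CTCF core motif with the third base of the motif left free, a form of the motif chosen after values were seen. The search covered protein-coding genes outside chromosomes 18 and M, a limit set after the coverage of the promoter table was seen, and 81.9% of the tested genes of that kind had a promoter. A match was found for 75 of 1120 genes called lower (6.70%, 95% exact binomial interval 5.30% to 8.32%), 27 of 1198 called higher (2.25%, 1.49% to 3.26%) and 158 of 7727 not called (2.04%, 1.74% to 2.39%). Among all 32851 promoters of the table the share was 1.40%. The intervals cover counting error only, and the interval of the genes called lower lay above the other 2, which overlapped. Within 100 bases of the start the shares were 4.82% of genes called lower and 1.09% of genes called higher, with intervals apart (3.64% to 6.24% and 0.579% to 1.85%). With the third base of the motif fixed, over the whole promoter and as an alternative added after the data were seen, they were 2.32% (1.52% to 3.38%) and 0.918% (0.459% to 1.64%), and these intervals overlapped.

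**Figure D3:**
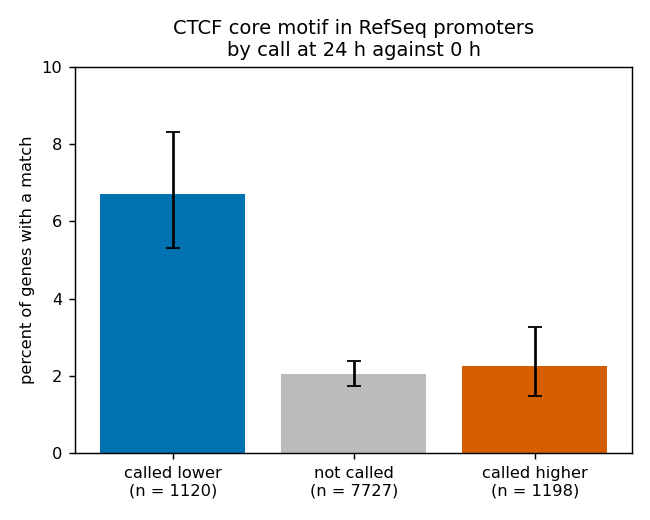
Bars give the percent of protein-coding genes whose RefSeq promoter holds a match to the CTCF core motif, by call at 24 h against 0 h, with n as the number of genes with a promoter, and error bars are 95% exact binomial intervals. The bar of genes called lower stands at 6.70% and the other bars at 2.04% and 2.25%.

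Among the 10 largest falls 9 genes had a promoter in the table and 2 of these held a match, Lyrm9 and Dennd6b, and among the 10 largest rises 7 had a promoter and 0 held one. Of all named genes, 147 had a promoter and 9 held a match. The windows below, chosen after values were seen, show the match in capitals with 30 bases on each side, 5′ to 3′ on the strand of the gene. They are given for these 2 genes, for Necab2, whose 24 h level lay below its 12 h level, for Calr and Rplp0, abundant genes with smaller falls, and for Fos and Gclm, the 2 of the 9 that rose.
Lyrm9 (chr11:78826495-78826566, plus strand): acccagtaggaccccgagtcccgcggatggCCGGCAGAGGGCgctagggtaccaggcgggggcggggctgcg
Dennd6b (chr15:89196613-89196684, minus strand): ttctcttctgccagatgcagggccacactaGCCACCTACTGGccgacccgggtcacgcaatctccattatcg
Necab2 (chr8:119446614-119446685, plus strand): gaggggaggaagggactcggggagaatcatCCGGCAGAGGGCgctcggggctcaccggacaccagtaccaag
Calr (chr8:84847077-84847148, minus strand): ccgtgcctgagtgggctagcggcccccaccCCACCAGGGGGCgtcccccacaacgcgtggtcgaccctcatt
Rplp0 (chr5:115559260-115559331, plus strand): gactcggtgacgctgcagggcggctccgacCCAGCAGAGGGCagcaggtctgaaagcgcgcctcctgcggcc
Fos (chr12:85473744-85473815, plus strand): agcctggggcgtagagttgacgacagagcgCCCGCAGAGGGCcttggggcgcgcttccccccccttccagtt
Gclm (chr3:122245447-122245518, plus strand): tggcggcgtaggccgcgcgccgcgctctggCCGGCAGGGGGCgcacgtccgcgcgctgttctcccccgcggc
The matches of Lyrm9 and Necab2 are the same 12 letters and start 70 and 75 bases before the gene start. With the third base of the motif fixed, Dennd6b, Calr and Rplp0 kept a match, while Lyrm9, Necab2, Fos and Gclm held none. That of Dennd6b lies on the opposite strand, 180 bases before the start. Calr, a calcium-binding chaperone of the endoplasmic reticulum, was 10730.3 and 10699 at 0 h, 8831 and 8799.5 at 12 h and 7490.4 and 7639.8 at 24 h (-0.50 ± 0.03 SE), and Rplp0, of the ribosomal stalk, was 20877 and 21164 at 0 h, 17356 and 17479 at 12 h and 15503 and 15964 at 24 h (-0.42 ± 0.03 SE). Fos, an immediate early transcription factor, was 29.9 and 29.1 at 0 h, 30.2 and 63.98 at 12 h and 90.8 and 75.2 at 24 h (1.46 ± 0.37 SE), and Gclm, a subunit of the enzyme that limits glutathione synthesis, was 1696 and 1730.3 at 0 h, 2747 and 2499.8 at 12 h and 3479 and 2179 at 24 h (0.68 ± 0.19 SE). The call of Fos was lost without any 1 of the 0 h and 24 h libraries, at 1.32 to 1.59. That of Gclm was lost without any 1 of the 0 h and 12 h libraries, at 0.67 to 0.70, and its difference without 24 h replicate 1 was 0.35. Gclm is overlapped by a gene on the opposite strand. A match is a run of letters and not evidence of binding.

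The direct comparison of 24 h with 12 h asks which genes went on changing. Limma called 20 genes (0.146% of those tested), 12 higher and 8 lower at 24 h, with adjusted p of 0.0337 to 0.0493. Before adjustment 1929 genes had p under 0.05, and 351 differed at least 2-fold with no test, 189 higher and 162 lower. The 20 calls were fragile: limma called 0 genes with only these 2 groups, with a replicate block, with no mean trend in the variance fit or without either 0 h library, 1 and 2 genes were called without 12 h replicates 1 and 2, and 10 and 7 without 24 h replicates 1 and 2, with only 1 of the 20 in each of these last sets. In these 5 fits 1689, 2024, 1725, 1697 and 1692 genes had p under 0.05 before adjustment.

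Of the 12 genes higher at 24 h than at 12 h, 11 were also higher than at 0 h. Some rose in both steps. Dppa3 (also Stella), a maternal factor that protects DNA methylation imprints and marks naive stem cells, was 158 and 148 at 0 h, 415 and 434 at 12 h and 768 and 787 at 24 h. Htr5a, a serotonin receptor, was 63.8 and 71.3 at 0 h, 190.1 and 197 at 12 h and 457 and 448 at 24 h, and Tgfbr3, the coreceptor betaglycan, was 395 and 395 at 0 h, 996 and 996 at 12 h and 1474 and 1493 at 24 h. The replicate libraries of these genes lay close together at each time, and the 24 h minus 12 h differences were 0.87, 1.22 and 0.57. Ifitm1, an interferon-induced membrane protein, was 813 and 801 at 0 h, 1932 and 1859.6 at 12 h and 2789 and 2706 at 24 h. Morf4l2, a subunit of the NuA4 acetyltransferase complex, was 6165 and 6131 at 0 h, 9718 and 9576 at 12 h and 12475 and 12125 at 24 h, and Ldhb, a lactate dehydrogenase subunit, was 5896 and 5842 at 0 h, 6945 and 6836 at 12 h and 8573 and 8725 at 24 h. These abundant genes rose by small steps of 0.54, 0.35 and 0.33 beyond 12 h.

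Sdc4 and Cenpv moved mainly after 12 h. Sdc4, the cell surface proteoglycan syndecan 4, was 973 and 993 at 0 h, 1048 and 1073 at 12 h and 1612 and 1633 at 24 h, and Cenpv, a centromere protein, was 447 and 416 at 0 h, 459 and 501 at 12 h and 892 and 1003 at 24 h. Their 12 h levels lay close to 0 h (12 h minus 0 h 0.11 and 0.15). Lrp8os2 had the largest 24 h minus 12 h difference, 2.80 (SE 0.27, adjusted p 0.0337). Cpeb1, which controls cytoplasmic polyadenylation of mRNA in oocytes and neurons, was 186 and 151 at 0 h, 90.96 and 89.8 at 12 h and 284 and 311 at 24 h, and Traf3ip2, an adaptor of interleukin-17 signalling, was 349 and 357 at 0 h, 288 and 249.8 at 12 h and 690.0 and 772 at 24 h. Both had 12 h values below 0 h and 24 h values above it, with 24 h minus 12 h differences of 1.71 and 1.44. The rise of Cpeb1 over 0 h, 0.82, was not called without 0 h replicate 2 (0.67) or 24 h replicate 2 (0.76). Traf3ip2 is overlapped on the opposite strand by a provisional gene. Slc38a4, an imprinted amino acid transporter, fell by 12 h and partly returned: it was 1157 and 1105 at 0 h, 561 and 552 at 12 h and 874 and 852 at 24 h, and at 24 h it was still below 0 h (-0.39 ± 0.07 SE), a call lost without 0 h replicate 1 (-0.36).

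Of the 8 genes lower at 24 h than at 12 h, some had risen by 12 h and others had not. Nupr1, a stress-induced chromatin protein, was 630.1 and 646 at 0 h, 968 and 896 at 12 h and 576 and 549.5 at 24 h, and Psat1, an enzyme of serine synthesis, was 6801 and 6864 at 0 h, 7821 and 7783 at 12 h and 6180.1 and 6425 at 24 h. Macf1, a linker of microtubules and actin, was 5371 and 5193 at 0 h, 6948 and 6953 at 12 h and 5225 and 5304 at 24 h. These 3 genes were above 0 h at 12 h and were not called between 24 h and 0 h (adjusted p in limma 0.143, 0.0581 and 0.944). Psat1 passed under other scalings, at an adjusted p of 0.0479 with TMM and 0.0143 with quantile normalisation, and without 24 h replicate 2 (0.0493). Cars, the cysteinyl-tRNA synthetase, was 2729 and 2732 at 0 h, 3180.1 and 3236 at 12 h and 2494 and 2397 at 24 h, and Nqo1, a quinone reductase, was 1562 and 1494 at 0 h, 2864 and 2951 at 12 h and 2169 and 2063 at 24 h, still above 0 h at 24 h. Cars at 24 h differed from 0 h by -0.16 ± 0.05 (SE), a call lost without any single library of the 6 and with the replicate block (limma adjusted p 0.0503), with differences of -0.19 to -0.13. In contrast, 3 genes stayed near 0 h at 12 h and fell after it: Aldh18a1, an enzyme of proline synthesis, was 1716 and 1733 at 0 h, 1764 and 1829 at 12 h and 1329.7 and 1337 at 24 h. Ncapg2, a subunit of condensin II, was 1873 and 1993 at 0 h, 2051 and 1971 at 12 h and 1331 and 1409 at 24 h, and Pdcl3, a chaperone cofactor, was 941 and 950.1 at 0 h, 881 and 849 at 12 h and 559 and 540.2 at 24 h. The 24 h minus 12 h differences of Aldh18a1, Ncapg2 and Pdcl3 were -0.43, -0.55 and -0.65.

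**Figure D4:**
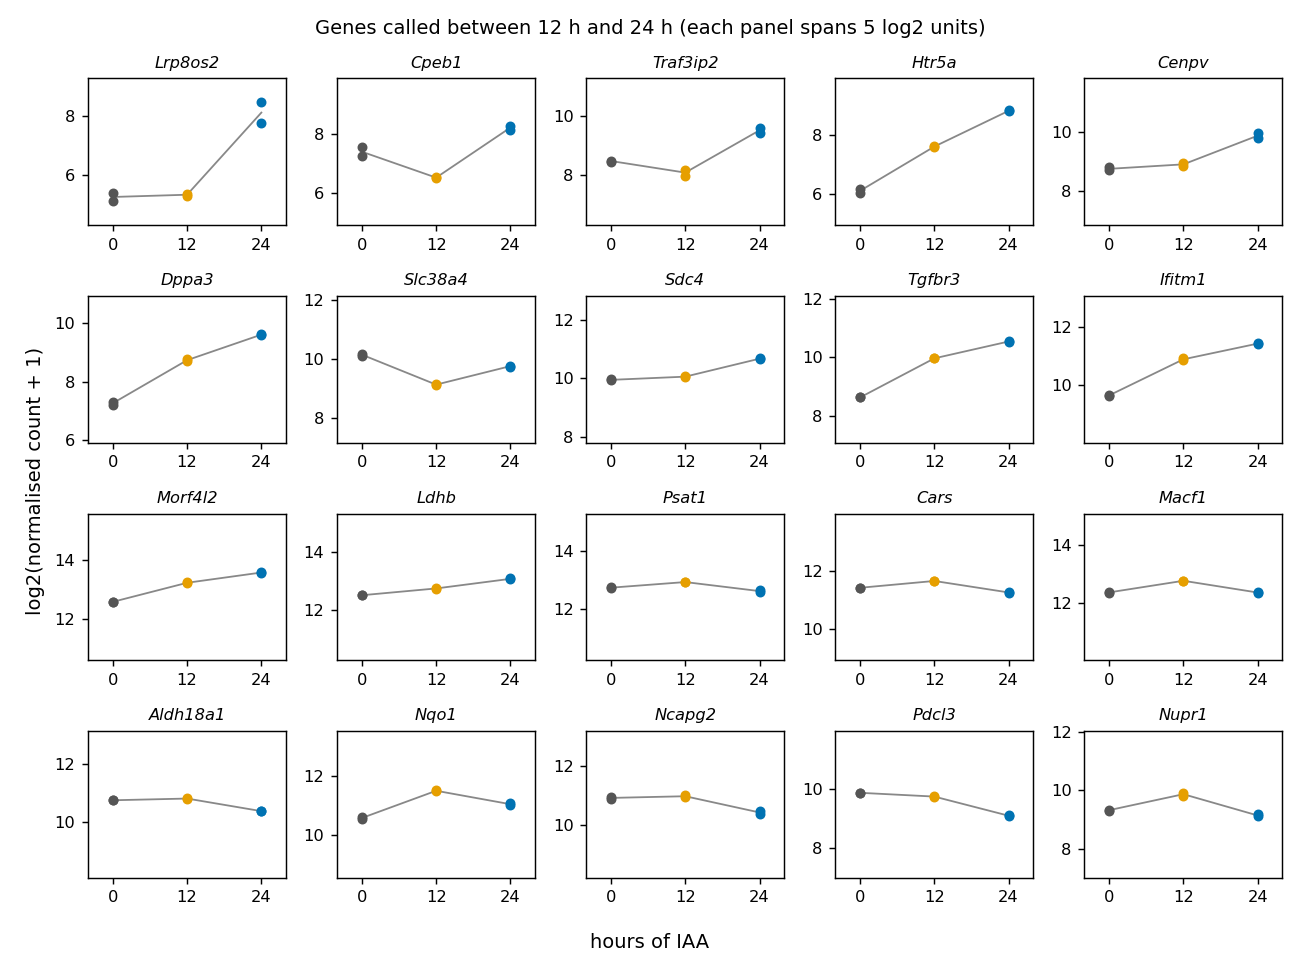
Each panel gives 1 of the 20 genes called between 12 h and 24 h, with hours of IAA on the horizontal axis and log2(normalised count + 1) on the vertical axis, 1 point per library and a line through the group means, and every panel spans 5 log2 units. The panels run from Lrp8os2, with the largest rise after 12 h, to Nupr1, with the largest fall, and several genes turn at 12 h.

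A wider set of 87 genes was described with no test of its own: genes called at 24 h against 0 h whose 24 h mean lay at least 1 log2 unit beyond the 12 h mean in the same direction, with 24 h libraries outside the range of the other 4. It held 37 rises (0.27% of genes tested) and 50 falls (0.365%), and 38 of these genes, 19 in each direction, differed by less than 0.5 between 12 h and 0 h. The count was 52 and 41 without 0 h replicates 1 and 2 and 137 and 136 without 24 h replicates 1 and 2. With a mean of at least 100 over the 6 libraries asked of every gene, it was 12. In the direct limma test of 24 h against 12 h only 4 of the 87 were called, Lrp8os2, Cpeb1, Traf3ip2 and Htr5a.

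Of the rises in that set with a mean of at least 100, Zfp382, a KRAB zinc finger repressor, was 45.3 and 52.6 at 0 h, 101 and 46.5 at 12 h and 199.7 and 251 at 24 h. Its 24 h values were the highest, with a difference from 0 h of 2.17 (SE 0.35, adjusted p 0.00586). Bnc2, the zinc finger protein basonuclin 2, was 60.3 and 74.3 at 0 h, 67.2 and 105 at 12 h and 147 and 539 at 24 h, and its rise of 2.06 ± 0.55 (SE) rested on 24 h replicate 2: without it the difference was 1.13 and was not called. The call was also lost without either 0 h or either 12 h library, at 1.91 to 2.21, and without 24 h replicate 1 the difference was 2.99. Of the falls, Necab2, a neuronal calcium-binding protein, was 118 and 143 at 0 h, 28 and 26.9 at 12 h and 7.79 and 13.6 at 24 h. Dph7 likewise had lower values at each later time (-2.50 to 12 h and -1.33 beyond). The 24 h minus 12 h differences of Zfp382, Bnc2, Necab2, Dph7, Shisa7 and Zan were not called (limma adjusted p 0.121 to 0.321). Shisa7, a regulator of synaptic receptors, was 107 and 185 at 0 h, 114 and 103 at 12 h and 44.5 and 45.1 at 24 h (-1.63 ± 0.27 SE). Its 12 h values lay within or just below the range of its 0 h values, and below both lay the 24 h values. Zan, the sperm protein zonadhesin, was 257 and 83.05 at 0 h, 85.99 and 34.4 at 12 h and 17.5 and 18.9 at 24 h, with 0 h libraries far apart. Its difference of -2.94 ± 0.59 (SE) was not called without 0 h replicate 1 (-2.13) or 24 h replicate 1 (-2.89), was -3.75 without 0 h replicate 2, and may share reads with Ephb4 on the opposite strand.

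Genes of loci known for CTCF-dependent enhancer contact were among those that fell. Counts of rises and falls in gene lists, from here on, stand beside 11.7% and 10.8% of all genes. Of 58 clustered protocadherins, cell adhesion proteins of which each neuron uses a few, 19 were in the table and 12 passed the filter on low values. Some of the 12 passed only through their 0 h values, so that their counts are a description and no support for a direction. Of the 12, 0 rose and 8 fell, and with no filter 13 of the 19 fell. The median difference of the 12 was -2.07 at 24 h and -1.70 at 12 h. Pcdhga7 was 20.2 and 46.8 at 0 h and 0 and 0 at 24 h and was listed at 0 in the 12 h libraries too, with no overlap between 0 h and the later times. With a pseudocount of 5 the differences of Pcdhga7 and Pcdhga8 were -2.85 and -2.57, against -4.99 and -4.30, so these sizes depend on it. Pcdhga8 was 32.4 and 23.8 at 0 h, 2.99 and 5.22 at 12 h and 1.12 and 0 at 24 h, and Pcdhga11 was 99.4 and 80.9 at 0 h, 41.8 and 21.7 at 12 h and 11.2 and 1.12 at 24 h. Pcdhga11 stood between its 0 h and 24 h levels at 12 h, and its difference at 24 h was -4.16 ± 0.78 (SE). Pcdhga2 was 32.4 and 33.4 at 0 h and 1.12 and 3.35 at 24 h (-3.48 ± 0.58 SE). These genes share their last exons with the whole gamma cluster, so the division of reads among them is uncertain. The count of falls was 4 and 3 without 0 h replicates 1 and 2. Without 0 h replicate 2 the calls of Pcdhga7 (-4.41), Pcdhga2 (-3.46) and Pcdhga11 (-4.30) were lost, the last also without replicate 1 (-4.01). The difference of Pcdhga11 was -5.42 and -2.89 without 24 h replicates 1 and 2.

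Hox genes, the regulators of body axis position, were low at 0 h, 22 of 39 were in the table and 19 passed the filter, some through their 0 h values alone. Of these 7 fell and 0 rose, with a median of -0.68 at 24 h and -0.75 at 12 h. As with the protocadherins, these counts and medians are a description and no support for a direction. The largest falls were in the Hoxa cluster and at the end of Hoxd. Hoxa10 was 41.4 and 28.2 at 0 h, 2.37 and 2.72 at 12 h and 1.19 and 2.37 at 24 h (-3.69 ± 0.54 SE), Hoxa9 was 42.7 and 74.6 at 0 h and 3.39 and 6.15 at 24 h, Hoxa3 was 49.96 and 58.6 at 0 h and 5.62 and 16.8 at 24 h and Hoxd13 was 54.4 and 41.2 at 0 h and 3.38 and 12.4 at 24 h. At 12 h the values of these 4 genes were 2.37 and 2.72, 3.00 and 0.524, 7.92 and 7.78 and 12.9 and 15.6, each below both 0 h values. Without 0 h replicates 1 and 2 the count of falls was 3 and 2. The calls of Hoxd13 (-2.46 and -2.86) and Hoxa3 (-2.46 and -2.23) were lost without either, and that of Hoxa9 without replicate 2 (-2.96). Without 24 h replicates 1 and 2 the difference was -1.86 and -3.46 in Hoxd13 and -1.63 and -3.06 in Hoxa3. CTCF binds the imprinting control region of the Igf2-H19 domain. Of 19 genes listed for that domain and the region around it, 9 were tested, and 2 rose and 1, Mrpl23, fell. The next tested gene after Mrpl23 was Tspan32, 472360 bases away by start site, so H19 and Igf2, which lie between, were not tested. Cdkn1c, 1 of the 2 that rose, lies beyond Tspan32 on chromosome 7 (143458339 to 143461050). Cdkn1c, an imprinted cell cycle inhibitor, was 40.9 and 45.7 at 0 h and 84.6 and 75.4 at 24 h (0.87 ± 0.22 SE), a call lost without any 1 of these 4 libraries (0.79 to 0.95). Ctsd, the protease cathepsin D, was 3503 and 3659.9 at 0 h, 3576 and 3693 at 12 h and 4363 and 4495 at 24 h (0.31 ± 0.04 SE). Its 12 h values were close to 0 h, and its 24 h minus 12 h difference of 0.29 was not called (limma adjusted p 0.0826).

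More Wnt targets were called higher than lower, in a medium that already holds a GSK3 inhibitor. Of 18 tested, 9 rose and 2 fell, beside 11.7% and 10.8% of all genes. The median of the 18 was 0.34 at 12 h and 0.58 at 24 h. Dkk1 and T averaged 5.16 and 7.87 at 0 h and passed the filter on low values only through their IAA libraries. The counts and medians of this list are therefore a description and no support for a direction. Besides Dkk1 and T, Sp5, a transcription factor induced directly by beta-catenin, was 226 and 182 at 0 h, 649 and 636 at 12 h and 1050.0 and 1109 at 24 h. Lef1, the DNA-binding partner of beta-catenin, was 44.8 and 47.2 at 0 h, 122 and 142 at 12 h and 214 and 212 at 24 h, and Myc, the growth regulator, was 47.5 and 42.8 at 0 h, 121 and 123 at 12 h and 161 and 201 at 24 h. In each of these 3 genes all 24 h values exceeded all 12 h values, which exceeded all 0 h values, with 24 h minus 0 h differences of 2.41, 2.19 and 1.97. Their 24 h minus 12 h differences (0.75, 0.69 and 0.56) were not called (limma adjusted p 0.0771, 0.156 and 0.263). Cdx1, another target and a caudal-type homeobox regulator, went the other way, 878 and 1005 at 0 h, 321 and 321 at 12 h and 460.5 and 483 at 24 h. It fell by 0.99 (SE 0.10, adjusted p 0.000662), and its 24 h values lay between those at 12 h and 0 h.

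Genes that send and receive the Wnt signal moved both ways. Of 5 tested ligand genes and ligand-processing genes, Wnt5b, a noncanonical ligand, was 14.7 and 16.1 at 0 h and 82.8 and 92.3 at 24 h (2.43 ± 0.25 SE). Porcn, the acyltransferase that Wnt secretion needs, was 58.7 and 85.95 at 0 h and 10.6 and 11.5 at 24 h (-2.58 ± 0.43 SE), a call lost without 0 h replicate 2 (-2.31). Of 21 receptors and inhibitors, 8 rose and 4 fell, with a median of 0.05. Sfrp2, a secreted inhibitor, was 339.7 and 315 at 0 h and 724 and 826 at 24 h, and Fzd4, a receptor, was 224 and 209 at 0 h and 102 and 87 at 24 h, with differences of 1.24 ± 0.10 and -1.19 ± 0.18 (SE). Fzd9, another receptor, had a difference of -1.24 ± 0.28 (SE) whose call was lost without either 0 h library (-1.16 and -1.32) or 24 h replicate 1 (-1.06). Without 0 h replicate 2, 5 receptors and inhibitors rose and 1 fell, and without 0 h replicate 1 or 24 h replicate 1 also 1 fell. It was 2 without either 12 h library or 24 h replicate 2 and with quantile normalisation. With no mean trend in the variance fit 5 rose.

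Pluripotency genes stayed abundant, with changes in both directions. Of 21 naive pluripotency genes, 8 rose and 4 fell, with a median of 0.12. Dppa3 had the largest rise, 2.34 ± 0.10 (SE). Tdh, a threonine dehydrogenase of naive cells, was 6680.4 and 6816 at 0 h and 9846 and 9840.4 at 24 h, and Il6st, the gp130 receptor that leukemia inhibitory factor uses, was 1946 and 1948 at 0 h and 2841 and 2712 at 24 h. Tet2, a DNA demethylase, was 2421 and 2465 at 0 h, 2049 and 1916 at 12 h and 1618 and 1698 at 24 h, a difference of -0.56 ± 0.06 (SE), and Nanog, a core factor of naive cells, was 15808 and 15637 at 0 h and 11694 and 11922 at 24 h (-0.41 ± 0.03 SE). Of 17 core and formative genes, 5 rose and 3 fell. Lin28a, an RNA-binding protein that blocks let-7 maturation, was 173 and 159 at 0 h, 453 and 419.6 at 12 h and 576 and 484 at 24 h, a rise of 1.67 (SE 0.12, adjusted p 0.000240). Otx2, a driver of the exit from naive pluripotency, was 29.03 and 25.3 at 0 h and 83.3 and 61.95 at 24 h (1.37 ± 0.27 SE), a call lost without 0 h replicate 2 (1.28) or 24 h replicate 1 (1.16). Dnmt3a, a de novo DNA methyltransferase, was 905 and 1076 at 0 h, 474 and 543 at 12 h and 569 and 437 at 24 h and fell by 0.98 ± 0.15 (SE). Without 0 h replicate 2, 1 core and formative gene fell.

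Germline genes, part of which are active in these cells, fell more often than they rose. Of 27 tested, 12 fell and 1, Cpeb1, rose, beside 10.8% and 11.7% of all genes, with a median of -0.52 at 24 h and -0.29 at 12 h. Stra8, the gatekeeper of meiosis, was 2162 and 1938 at 0 h, 272 and 271 at 12 h and 333 and 248 at 24 h, and Dppa2, a chromatin factor that primes developmental promoters, was 1368 and 1323 at 0 h, 454 and 445 at 12 h and 427 and 448 at 24 h. Their differences were -2.83 ± 0.14 and -1.62 ± 0.08 (SE), and both had reached their 24 h level at 12 h. Taf7l, a TFIID subunit of male germ cells, was 131 and 108 at 0 h, 69.7 and 75.9 at 12 h and 52.4 and 40.8 at 24 h, a slower fall whose call was lost without 0 h replicate 1 (-1.21). Of 13 tested genes of the 2-cell-like state, 3 fell, all of the Zscan4 family of telomere-associated zinc finger genes. Zscan4f was 134 and 164 at 0 h, 84.8 and 77.4 at 12 h and 43.4 and 39.5 at 24 h (-1.82 ± 0.20 SE). The Zscan4 genes are near-identical copies, so reads cannot be assigned to single members with certainty, and only 1 was called without either 0 h library or 24 h replicate 1.

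Targets of the aryl hydrocarbon receptor, a ligand-activated factor that binds many aromatic compounds, indoles among them, moved upward where they changed. Of 11 tested, 6 rose and 0 fell. Cyp1b1, Ahrr and Cyp1a2 averaged under 10 at 0 h and passed the filter on low values only through their IAA libraries. The counts of this list are therefore a description and no support for a direction. Cyp1b1 was 5.08 and 4.27 at 0 h, 60.8 and 43.9 at 12 h and 88.8 and 70.4 at 24 h, with a difference of 3.82 (SE 0.32, adjusted p 0.000390). Ahrr, the repressor of the receptor, was highest at 12 h: it was 10.3 and 6.30 at 0 h, 284 and 145 at 12 h and 47.7 and 55.5 at 24 h, and its 24 h minus 12 h difference of -1.96 was not called (limma adjusted p 0.115). Cyp1a2 was 9.08 and 10.7 at 0 h and 39.8 and 25.8 at 24 h (1.61 ± 0.40 SE), a call lost without either 0 h library (1.51 and 1.71) or 24 h replicate 1 (1.31). These genes share a rise in cells given 500 µM IAA, and the part of the compound itself was not tested. Of 17 targets of NRF2, the factor of the oxidative stress response, 6 rose and 0 fell. Nqo1, a target of both, rose by 0.47 ± 0.05 (SE). The NRF2 count was 3 without either 0 h library and 1 with no mean trend in the variance fit.

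Most cholesterol synthesis genes fell by small amounts. Of 24 tested, 16 fell and 0 rose, with a median of -0.35 at 24 h and -0.27 at 12 h. Mvd, of the mevalonate pathway, was 828 and 892 at 0 h, 603 and 586 at 12 h and 541 and 495 at 24 h, Lss, which closes the sterol rings, was 1935 and 2016 at 0 h, 1436 and 1563 at 12 h and 1183 and 1199 at 24 h, and Nsdhl, a sterol dehydrogenase, was 1363 and 1290.2 at 0 h, 803 and 841 at 12 h and 841 and 775 at 24 h. The 3 differences were -0.73 ± 0.09, -0.73 ± 0.06 and -0.71 ± 0.07 (SE). In Lss and Mvd every 24 h value lay below every 12 h value, but neither gene was called between 24 h and 12 h. The count of falls was 9 and 10 without 0 h replicates 1 and 2 and 10 without 24 h replicate 2, and 9 with no mean trend in the variance fit.

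Glycolysis and hypoxia genes split. Of 32 tested, 13 rose and 5 fell, with a median of -0.01 at 12 h and 0.10 at 24 h. At 24 h against 12 h, 28 of the 32 lay above 0, beside 6967 of all 13699 genes, with no test of the list. Vegfa, the vascular growth factor, was 1299.5 and 1198 at 0 h, 726 and 708 at 12 h and 596 and 689 at 24 h and fell by 0.96 ± 0.09 (SE). Eno2, the neuronal enolase, was 72.8 and 101 at 0 h and 24.7 and 31.3 at 24 h (-1.59 ± 0.29 SE), a call lost without 0 h replicate 2 (-1.36). Slc16a3, a lactate exporter, was 261 and 305 at 0 h, 184 and 224 at 12 h and 393 and 452 at 24 h, below 0 h at 12 h and above it at 24 h. Its rise of 0.58 ± 0.15 (SE) was not called without any 1 of the 4 libraries at 0 h and 24 h (0.47 to 0.69). Without 0 h replicate 2, 2 members fell.

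Apoptosis genes and genes of DNA replication and mitosis fell more often than they rose. Of 23 apoptosis genes, 10 fell and 2 rose, with a median of -0.25. Bak1, a pore-forming protein of the mitochondrial death pathway, was 2339.6 and 2109 at 0 h, 438 and 497 at 12 h and 391 and 301 at 24 h and fell by 2.69 (SE 0.14, adjusted p 6.00e-05). Bmf, which activates that pathway, was 121 and 256 at 0 h, 62.5 and 65.3 at 12 h and 37.03 and 54.8 at 24 h (-1.94 ± 0.37 SE), with 0 h libraries far apart. The count of falls was 5 without either 0 h library and 6 without either 24 h library. Of 25 genes of G1/S and replication 11 fell and 0 rose, with a median of -0.20. Rrm2, a subunit of ribonucleotide reductase, was 4956 and 4847 at 0 h, 4068 and 4007 at 12 h and 3389.6 and 3596 at 24 h (-0.49 ± 0.05 SE). The count was 2 without 0 h replicate 1 and 3 with no mean trend in the variance fit. Of 25 genes of G2/M and mitosis 6 fell and 0 rose, and Cdk1, the kinase of mitotic entry, was 4337 and 4100.2 at 0 h, 3195 and 3265 at 12 h and 2774 and 2832 at 24 h (-0.59 ± 0.05 SE). That count was 2 without either 0 h library or 24 h replicate 1, and 3 without 24 h replicate 2. Of the 7 inhibitors of cyclin-dependent kinases 2 rose and 2 fell.

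Of 30 targets of p53 tested, 8 rose and 3 fell, beside 11.7% and 10.8% of all genes, with a median of -0.09 at 12 h and 0.17 at 24 h. At 24 h against 12 h, 26 of the 30 lay above 0, beside 6967 of all 13699 genes, with no test of the list. Cdkn1a, the cell cycle inhibitor p21 and a classic target, was 3139.6 and 3268 at 0 h, 1910.3 and 1958 at 12 h and 2382 and 2475 at 24 h, below 0 h at both times (-0.40 ± 0.05 SE at 24 h). Pmaip1, a death activator, was 152 and 148 at 0 h, 67.2 and 59.1 at 12 h and 75.7 and 89.4 at 24 h, with a difference of -0.86 ± 0.19 (SE) that was not called without either 0 h library (-0.84 and -0.88) or 24 h replicate 1 (-0.74). The count of rises was 3 and 2 without 0 h replicates 1 and 2 and 5 without 24 h replicate 1, and that of falls was 1 without 0 h replicate 2. With no mean trend in the variance fit 3 rose.

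Other signalling pathways held changes in both directions. Of 27 genes of BMP and Nodal signalling, 3 rose and 3 fell, shares close to those of all genes. Inhbb, the beta B subunit of activin, was 263 and 269 at 0 h, 40.8 and 39.1 at 12 h and 28.1 and 29.1 at 24 h and fell by 3.17 (SE 0.19, adjusted p 0.000117). Id4, an inhibitor of basic helix-loop-helix factors, was 153 and 158 at 0 h, 340.2 and 331 at 12 h and 407 and 404 at 24 h, and Lefty1, a Nodal antagonist, was 193 and 184 at 0 h, 209.9 and 247 at 12 h and 343 and 383 at 24 h. Id4 rose mainly by 12 h and Lefty1 mainly after it (1.38 and 0.94 at 24 h). Of 13 Hedgehog genes 6 fell and 0 rose. Hhip, a decoy receptor, was 221 and 262 at 0 h, 124 and 78.8 at 12 h and 47.5 and 85.5 at 24 h (-1.90 ± 0.33 SE), a call lost without 0 h replicate 2 (-1.78). The count of falls was 1 without 0 h replicate 1 or 24 h replicate 1, 2 without 0 h replicate 2 and 3 without 24 h replicate 2. Of 16 Notch genes 3 rose and 0 fell. Jag1, a ligand, was 389 and 341 at 0 h and 575 and 718 at 24 h, Rfng, a glycosyltransferase that modifies Notch, was 345 and 318 at 0 h and 625 and 623 at 24 h, and Maml2, a coactivator, was 111 and 119 at 0 h and 209 and 227 at 24 h. These 3 rises were under 2-fold, at 0.82 ± 0.13, 0.91 ± 0.10 and 0.92 ± 0.16 (SE). Of 16 Eph receptors and ephrins, which mediate contact between cells, 5 rose and 3 fell. Ephb3 was 435 and 367 at 0 h and 968 and 952 at 24 h, and its ligand gene Efnb2 was 77.3 and 107 at 0 h and 221 and 234 at 24 h, while Efnb3 was 64.9 and 70.3 at 0 h, 21.9 and 32.1 at 12 h and 14.6 and 15.7 at 24 h and Ephb2 was 337 and 403 at 0 h and 164 and 187 at 24 h. The differences were 1.26, 1.31, -2.09 and -1.07 in the same order.

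Genes of the ERK response, in cells held under a MEK inhibitor, included 5 rises and 3 falls among 23 tested. Etv1, an ETS factor of the FGF response, was 444 and 395 at 0 h, 1134 and 895 at 12 h and 819 and 750.1 at 24 h (0.90 ± 0.13 SE). The count of rises was 2 without either 0 h library and 3 without either 24 h library.

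Stress programmes had list medians near that of all genes at 24 h against 0 h. They were -0.10 for the integrated stress response, -0.03 for the unfolded protein response and -0.05 for heat shock genes. The integrated stress response had a median of 0.21 at 12 h against 0 h and -0.31 at 24 h against 12 h. In the latter step 1 of its 29 members lay above 0, beside 6967 of all 13699 genes, with no test of the list. Of 29 genes of the integrated stress response 3 rose and 5 fell, beside 11.7% and 10.8% of all genes. The largest fall was that of Atf3, a stress-induced transcription factor (-1.16 ± 0.31 SE), a call lost without any 1 of the 0 h and 24 h libraries (-1.36 to -0.97) and with quantile normalisation (limma adjusted p 0.0654). Mthfd2, a mitochondrial enzyme of folate metabolism, was 1195 and 1083 at 0 h, 965 and 917 at 12 h and 722 and 763 at 24 h (-0.62 ± 0.08 SE), while Sesn2, a leucine sensor of the sestrin family, was 1805 and 1760.2 at 0 h, 2607 and 2588 at 12 h and 2447 and 2563 at 24 h (0.49 ± 0.05 SE). Of 20 genes of the unfolded protein response 1 rose and 5 fell. Manf, a secreted protein of the endoplasmic reticulum, was 1565 and 1601 at 0 h, 1186 and 1437 at 12 h and 1031 and 864 at 24 h, and Xbp1, a main transcription factor of that response, was 969.9 and 909 at 0 h, 644 and 640.1 at 12 h and 572 and 657 at 24 h. Their differences were -0.75 ± 0.11 and -0.61 ± 0.09 (SE). Of 16 heat shock genes 1 rose and 3 fell, the largest fall being that of Hspa4l, a chaperone of the Hsp110 family (-1.65 ± 0.41 SE), a call also lost without any 1 of these libraries (-1.91 to -1.38). The counts of falls in these 3 lists were 3, 3 and 0 without 0 h replicate 1 and 2, 3 and 0 without 0 h replicate 2. Without 24 h replicate 1 they were 3 in the first list and 0 in the last, and with no mean trend in the variance fit they were 2, 3 and 0.

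Genes of other lineages gave no common direction. Of 10 tested mesoderm and primitive streak genes 1, T, rose and 1, Cdx1, fell. Of 8 neural genes 4 rose and 1 fell, and Ncam1, a neural cell adhesion molecule, was 805 and 770.2 at 0 h, 1052 and 1001 at 12 h and 1093 and 1098 at 24 h (0.48 ± 0.07 SE). Of 9 primitive endoderm genes 2 rose and 2 fell, and Lama1, the laminin alpha 1 chain of basement membranes, was 1791 and 1646 at 0 h, 2169 and 2086 at 12 h and 2798 and 3166 at 24 h (0.79 ± 0.07 SE). Of 11 trophoblast genes 1 rose and 2 fell. Esx1, a placental homeobox factor, was 134 and 136 at 0 h, 34.3 and 30.1 at 12 h and 31.3 and 26.1 at 24 h, and Ets2, an ETS factor of trophoblast, was 914 and 1021 at 0 h, 450.4 and 476 at 12 h and 387 and 420.0 at 24 h, with differences of -2.20 ± 0.23 and -1.26 ± 0.09 (SE). Of 18 collagens, laminins and related matrix genes 5 rose and 1 fell.

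Genes of the CTCF and cohesin machinery changed by small amounts, with 5 rises and 1 fall among 22 tested. Patz1, a zinc finger protein listed with them as a partner at boundaries, was 2106 and 2129.6 at 0 h, 2669.5 and 2744 at 12 h and 3022 and 3004 at 24 h (0.51 ± 0.04 SE) and had the largest rise. Stag1, a cohesin subunit, was 3649 and 3158 at 0 h, 4669 and 4373 at 12 h and 4803 and 4313 at 24 h (0.42 ± 0.08 SE), and Wapl, the cohesin release factor, was 5478 and 5282 at 0 h, 6276 and 5868 at 12 h and 6581 and 5909 at 24 h (0.21 ± 0.06 SE). Neither call held without each library. The call of Stag1 was lost without 0 h replicate 2 (0.32) or 24 h replicate 1 (0.35). That of Wapl was lost without any 1 library other than 24 h replicate 2 (0.14 to 0.24), and with quantile normalisation (limma adjusted p 0.0787). The count of rises in this list was 2 without either 0 h library or 24 h replicate 1, 3 without either 12 h library, 2 with quantile normalisation and 1 with no mean trend in the variance fit.

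**Figure D5:**
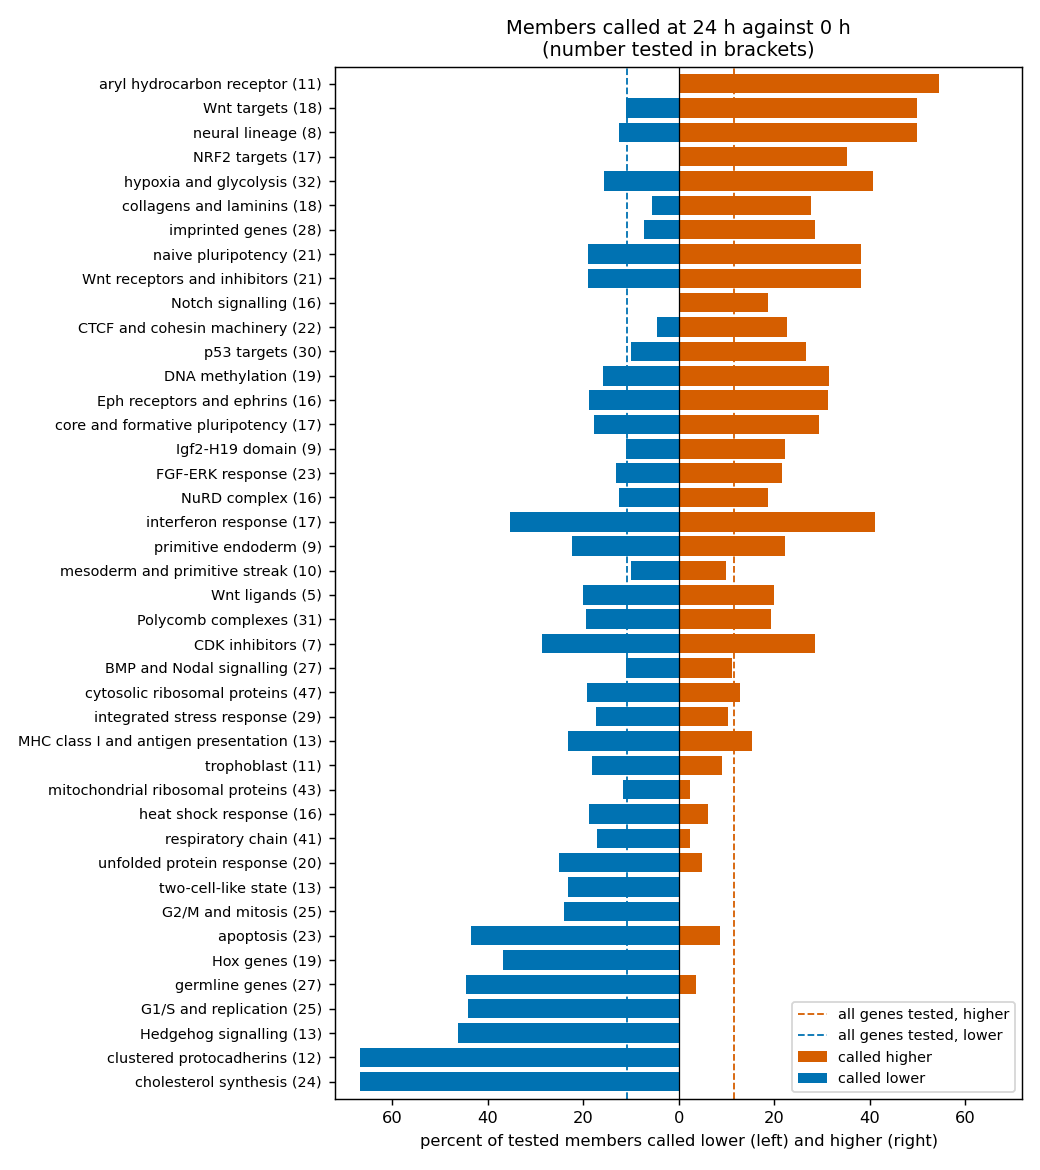
Each bar gives the percent of the tested members of a gene list that were called higher (orange, right) or lower (blue, left) at 24 h against 0 h, with the number tested in brackets, and dashed lines give the percent of all 13699 genes called in each direction (11.7% and 10.8%). Cholesterol synthesis and the clustered protocadherins, at the foot, have bars only on the left, and the aryl hydrocarbon receptor list, at the top, has one only on the right.

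Degradation of the cohesin subunit RAD21 was measured in a separate table, in which RAD21 AID cells of the same line were given 1 µM of 5-Ph-IAA, another auxin at another dose, so values are set side by side with no test between them. There, 1883 of 13738 genes (13.7%) were called at 24 h against 0 h. Of the 10 genes with the largest rises after CTCF degradation 8 were tested there and 1, Trh, was called, with 45.4 and 30.3 at 0 h and 78.5 and 92.2 at 24 h (1.17, adjusted p 0.0299 in limma). Dkk1 had a difference of 0.98 with RAD21 degradation (limma adjusted p 0.211) beside 5.00 with CTCF degradation, Cyp1a1 one of 0.02 beside 3.60, and Serpinb9 one of -0.19 beside 3.47. Of the 10 largest falls all were tested and 2 were called lower, Ankrd44 (-1.07 beside -3.86) and Dennd6b (-0.47 beside -4.41). Lyrm9 was -1.17 there beside -4.94, and was not called (limma adjusted p 0.314). Of the 20 genes called between 12 h and 24 h of CTCF degradation, 10 were called at 24 h against 0 h of RAD21 degradation, 8 higher and 2 lower. Sdc4 was 0.82 there beside 0.72, and Cenpv was -0.84 beside 1.13. Sdc4 was called higher in both experiments, while Cenpv was called lower after RAD21 degradation and higher after CTCF degradation.

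The nearest tested genes on either side of the leading genes, by start site and with no limit on overlap or distance, were also examined. Their start sites lay 52 to 533172 bases away, and genes that were not tested may lie between. Around the 10 largest falls 8 of 20 neighbours were called (5 higher, 3 lower), and around the 10 largest rises 7 of 20 were called (6 higher, 1 lower), beside 22.5% of all genes. The neighbours named here were chosen after their values were seen. Slc38a3, 10182 bases from Gnat1, had a log2 difference of 3.21. Serpinb9b, 24166 bases from Serpinb9, had one of 2.06 and Cyp1a2, 4225 bases from Cyp1a1, one of 1.61. Around the falls, Pgap1 (1.02), 368703 bases from Ankrd44, and Plxnb2 (0.68), 15708 bases from Dennd6b, were called higher. Most neighbours, 25 of 40, were not called.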

How the data were processed

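The authors deposited a signal per gene, 0 or more, which their table names call normalised counts. Per the submitters' processing notes, Trim Galore, Bowtie2, STAR, RSEM and DESeq2 were named with the build mm10. Their versions, roles and the annotation are not given in the sources used here. The 6 columns of the CTCF degradation table and 4 of the RAD21 degradation table were read by title, and 0 value columns were left unmapped. The last line of the former breaks off, and genes after it were not analysed here.

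Values were not whole counts, so they were put on a log2(value + 1) scale and the 3 groups were fitted together (limma 3.58.1, eBayes with a mean trend, R 4.3.3), with Benjamini-Hochberg adjustment over all genes with a mean of at least 10. The depth in reads is unknown. Genes were called at an adjusted p under 0.05, and the code was tested on simulated data. Named genes were the 10 largest called rises and falls that averaged 100 or more in their higher group, without overlap of libraries and without a provisional symbol, every gene called between 24 h and 12 h, the 6 largest further changes in each direction, Ctcf, and up to 4 members of each of 42 gene lists. Members and lists were chosen with earlier results of these data known. Positions are from GENCODE M21 on GRCm38 (100% of identifiers found), and promoter sequences from RefSeq. Alternatives covered pseudocounts, filters, scaling, the fit, a replicate block and each library left out. Other tables of the series were not used here, and results on 2 of the named genes are not reported here.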

Additional observations from a re-analysis of the deposited data

Results flagged for a closer look

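The change from 0 h differed between 24 h and 12 h, by the direct limma test of these times, for the 20 genes described above. These 20 calls were fragile to the settings of the fit and to single libraries left out, as described there. The 24 h minus 12 h differences were 2.80 for Lrp8os2, 1.71 for Cpeb1, 1.44 for Traf3ip2, 1.22 for Htr5a, 0.98 for Cenpv, 0.87 for Dppa3, 0.63 for Slc38a4, 0.61 for Sdc4, 0.57 for Tgfbr3, 0.54 for Ifitm1, 0.35 for Morf4l2 and 0.33 for Ldhb. Those of the genes lower at 24 h were -0.73 for Nupr1, -0.65 for Pdcl3, -0.55 for Ncapg2, -0.46 for Nqo1, -0.43 for Aldh18a1, -0.40 for Macf1, -0.39 for Cars and -0.31 for Psat1. Of the 12 higher genes 11 were also called higher than at 0 h and 1, Slc38a4, lower. Of the 8 lower genes 4 were called lower than at 0 h, 1, Nqo1, higher, and 3 were not called.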

How the results depend on the processing

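Without any 1 of the 6 libraries, 24 h against 0 h gave 1499 to 2585 calls (831 to 1328 higher and 668 to 1257 lower), 24 h against 12 h gave 0 to 10, 12 h against 0 h gave 1007 to 2596 and the further changed genes numbered 41 to 137. With no mean trend in eBayes, the calls were 2010 (949 higher) at 24 h, 1428 at 12 h and 0 between 24 h and 12 h, where 1725 genes had an unadjusted p under 0.05. That setting also ended the calls of Syt11, Cars, Bnc2, Zan, Pcdhga11, Fos, Gclm, Slc16a3, Stag1 and Wapl (limma adjusted p 0.0524 to 0.177). It left 1 fall among core and formative genes, 2 among genes of G2/M, 2 among Hedgehog genes, 3 each among hypoxia, interferon and Polycomb genes, and 4 rises among imprinted and 3 among matrix genes. A limit of 2-fold beside the adjusted p left 820 calls (288 higher, 532 lower) at 24 h, 609 at 12 h and 4 between these times. When the fit held just 2 groups, limma called 0 genes between 24 h and 12 h (1689 at an unadjusted p under 0.05), and with the replicate block it also called 0 (2024 unadjusted), while the block gave 3073 calls at 24 h against 0 h. Same-numbered libraries deviated from their group means with correlations of 0.0177 to 0.0404, so the numbers were not taken to pair them. A mean of at least 100 left 12 further changed genes. The cause of these shifts was not tested, beyond fewer libraries or genes entering the fit. Pseudocounts of 0.5 and 5, no filter on low values and other scalings kept the counts of calls over all genes and of further changed genes within 1.5 times of the reported ones, and scaling moved the median of all genes by under 0.1. Of 218 results on named genes, 203 kept their direction and call under both pseudocounts and both scalings, and 120 without each library in turn. Under quantile normalisation the falls among Wnt receptors and inhibitors numbered 2 (against 4), and Hsp90ab1 had a difference of 0, against 0.27. The share of promoters of all tested genes with the motif was 2.59%, 1.60% within 100 bases of the start and 0.816% with the third base of the motif fixed. With 2 libraries a group and values that hold no read depth, small differences of low genes were not detectable.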

Other observations

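Immune genes of the interferon pathway and of antigen presentation changed in both directions at 24 h. Of 17 interferon response genes 7 rose and 6 fell, with Irf5 and Ifitm1 at the ends (-4.89 and 1.77). Ddx58, the RNA sensor RIG-I, was 127 and 109.9 at 0 h, 235 and 246 at 12 h and 183 and 221 at 24 h, and its rise of 0.76 ± 0.16 (SE) was not called without 0 h replicate 2 (0.65) or 24 h replicate 2 (0.62). The counts without 0 h replicates 1 and 2 and 24 h replicate 1 were 3, 1 and 2 rises and 2, 2 and 3 falls. Of 13 genes of MHC class I and antigen presentation 2 rose and 3 fell. H2-K1, a classical class I heavy chain, was 695 and 598 at 0 h, 221 and 262 at 12 h and 233 and 253 at 24 h and fell by 1.41 ± 0.13 (SE) in limma. Class I genes are close copies, so their division of reads is uncertain. The count of falls was 1 without either 0 h library.

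Imprinted genes and genes of DNA methylation had several rises. Of 28 imprinted genes 8 rose and 2 fell. Peg3, a paternally expressed zinc finger gene, was 1062 and 1038 at 0 h, 1699 and 1715 at 12 h and 1698 and 1703 at 24 h, Snrpn, a paternally expressed splicing factor gene, was 713 and 699 at 0 h, 991 and 969.8 at 12 h and 1114 and 1125 at 24 h, and Impact, a translation regulator, was 3453 and 3803 at 0 h, 4959 and 5046 at 12 h and 5593 and 5470.5 at 24 h. The differences were 0.69, 0.66 and 0.61. The count of rises was 4 without either 0 h library and 5 without either 24 h library. Of 19 genes of DNA methylation 6 rose and 3 fell. Zfp57, a KRAB zinc finger protein that protects imprints, was 3487 and 3589.9 at 0 h, 6284 and 6952 at 12 h and 6115 and 6414 at 24 h (0.82 ± 0.06 SE). Kdm2b, which recruits Polycomb to CpG islands, was 1040.1 and 955 at 0 h, 1443 and 1445 at 12 h and 1615 and 1731 at 24 h (0.75 ± 0.07 SE). Of 43 mitochondrial ribosomal proteins 1 rose and 5 fell, beside 11.7% and 10.8% of all genes, and after Mrpl23 the largest fall was that of Mrps2, which was 1999.6 and 2047 at 0 h, 451 and 444 at 12 h and 384 and 340.5 at 24 h (-2.48 ± 0.08 SE). The count of falls was 3 without either 0 h library. Of 41 respiratory chain genes 1 rose and 7 fell, and of 47 cytosolic ribosomal proteins 6 rose and 9 fell. Without 0 h replicates 1 and 2 the falls numbered 3 and 2 in the respiratory chain and 3 and 3 among ribosomal proteins, where the rises numbered 2 and 3. They were 4 without 24 h replicate 1 in the former and 4 without 24 h replicate 2 in the latter. With no mean trend in the variance fit, 3 respiratory chain genes and 1 ribosomal protein gene fell and 0 ribosomal protein genes rose. Of 31 Polycomb genes 6 rose and 6 fell, with 2, 1 and 3 falls without 0 h replicate 1, 0 h replicate 2 and 24 h replicate 1. Eed, a core subunit of Polycomb repressive complex 2, was 2791 and 2616 at 0 h, 3800.2 and 3841 at 12 h and 3862 and 3625 at 24 h (0.47 ± 0.05 SE). Of 16 genes of the NuRD remodelling complex 3 rose and 2 fell, beside 11.7% and 10.8% of all genes, and 1 rose with no mean trend in the variance fit.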
